A study of Mus musculus with 6 samples.

Results

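The 38 genes described here encode the folding chaperones of the endoplasmic reticulum (ER) and the machinery of ER-associated degradation. They were taken by symbol from lists of known function, 19 folding chaperones and 19 degradation genes, with no threshold on measured values, although earlier results of these data were known when the lists were drawn up. All 38 were among the 16472 genes of the authors' deposited table. HT22 cells are immortalised neurons of the mouse hippocampus that are kept as a cell line. AA147 is a small molecule known to switch on ATF6, a sensor of the unfolded protein response, as well as NRF2, a regulator of the oxidative stress response. Cultures of this 1 line, grown in serum-containing medium, received AA147 (10 mM, as the labels write it) or DMSO as the vehicle. After 16 h, 3 libraries of non-stranded mRNA were sequenced per group, 6 in all. The comparison asks which ER transcripts differed between the AA147 and vehicle groups at this time.

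The authors' deposited table gives 1 value per gene for the whole comparison, so values and depths of single libraries were not analysed here. Each gene has a mean normalized count over the 6 libraries, a log2 fold change with its standard error (SE), and a p-value adjusted over 13597 genes. A gene is called when its adjusted p is under 0.05. The table does not name the numerator of the fold change. It was read as AA147 over vehicle, because in the authors' deposited table the NRF2 targets Nqo1 and Gsta4 had fold changes of 0.93 (SE 0.067) and 1.84 (SE 0.071), and every "higher" and "lower" below depends on that reading. Some targets of ATF6, which AA147 is also known to switch on, have the opposite sign. Hspa5 lay at -0.80, Herpud1 at -0.84 and Creld2 at -0.37 in the authors' deposited table. Other ER chaperones, such as Hsp90b1 at -0.09 and Canx at 0.01, were not called there. The genes on both sides were named with results of these data known. The reading thus rests on the NRF2 genes and is not settled by the table. If the table were vehicle over AA147, the implied levels of the groups would change places, and Hspa5 and Herpud1 would be 1.75-fold and 1.79-fold higher with AA147. The labels do not say that the libraries came from separate cultures, so the p-values measure the spread between these libraries, which may be technical. Of 10 neuronal markers, 3 had values, with means of 1199 for Tubb3, 562 for Syn1 and 3.93 for Slc17a7 in the authors' deposited table. The other 7, among them Map2 and Rbfox3, had no entry there. Of 6 fibroblast markers with values, 5 were called lower and 0 higher, with a median of -0.89. Of all genes tested, 11.1% were called lower and 9.05% higher. Col1a1 and Col1a2 had means of 139176 and 254004, and Pdgfra and Dcn both lay at -0.81 in the authors' deposited table. The neuronal Tubb3 was called higher, at 0.43 (adjusted p 5.67e-05, SE 0.092), and Syn1 lay at 0.13 (adjusted p 0.558, SE 0.128) in the authors' deposited table.

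Proteins of the secretory pathway are folded in the ER by chaperones of the HSP70 and HSP90 families, by lectins that bind their sugar chains, and by prolyl isomerases. Proteins that fail to fold are recognised, passed through a membrane ubiquitin ligase, extracted into the cytosol and degraded by the proteasome. When misfolded proteins accumulate, the sensors ATF6, IRE1 and PERK start the unfolded protein response, in which ATF6 and XBP1 bind short promoter elements of many of these genes.

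The promoters of the members were examined for these elements, because they are the sequences that ATF6 and XBP1 are known to bind. RefSeq promoters of assembly GRCm38.p6 (250 bases before to 50 bases after an annotated start) were matched by symbol for 30 of the 38 members. The ER stress element was searched as CCAAT, any 9 bases, then CCACG. The second ER stress element was searched as ATTGG, any 1 base, then CCACG, and the unfolded protein response element as TGACGTGG. Both strands were read, and the 3 motifs can overlap because all contain CCACG on a strand. The following matches to the ER stress element are printed in the motif's own direction, with the fixed bases in capitals.
Hspa5: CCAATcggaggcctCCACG
Creld2: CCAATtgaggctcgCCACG
Syvn1: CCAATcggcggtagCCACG
Dnajc3: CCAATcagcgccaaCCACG
Calr: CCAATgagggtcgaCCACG
Hsp90b1, distal match: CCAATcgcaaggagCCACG
Hsp90b1, proximal match: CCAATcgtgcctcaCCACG
Canx: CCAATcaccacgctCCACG

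The second element was matched in the following members, Herpud1 before the start and Dnajb11 just after it.
Herpud1: ATTGGgCCACG
Dnajb11: ATTGGcCCACG

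The ER stress element was thus found in 7 of the 30 members with a promoter (23.3%) and in 39 of all 32851 promoters (0.119%). All promoters include those of genes not tested, and 19 tested genes held the element. It was searched because it is known from promoters of this pathway. A higher share among the members was therefore foreseeable, and it is not a finding of these data. Of these 7 genes, 6 were folding chaperones and Syvn1 was the 1 degradation gene. The second element was found in 2 of 30 members and in 0.0365% of all promoters. The unfolded protein response element was found in Ube2j1 and Vcp and in 0.676% of all promoters. A match is a string of letters in this window and does not show that a factor bound there.

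The upstream stretches of Hspa5, Herpud1 and Hsp90b1 are shown whole because these genes carry matches and lay at different fold changes. Capitals mark the matches, and each stretch reads 5′ to 3′ along the gene and ends at the base before the annotated start. They lie at chr2:34771940-34772089 (Hspa5, plus strand), chr8:94386279-94386428 (Herpud1, plus strand) and chr10:86705445-86705674 (Hsp90b1, minus strand) of GRCm38.p6.
Hspa5: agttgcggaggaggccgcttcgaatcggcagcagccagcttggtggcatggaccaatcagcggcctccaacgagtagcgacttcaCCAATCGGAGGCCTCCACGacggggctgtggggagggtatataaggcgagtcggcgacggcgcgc
Herpud1: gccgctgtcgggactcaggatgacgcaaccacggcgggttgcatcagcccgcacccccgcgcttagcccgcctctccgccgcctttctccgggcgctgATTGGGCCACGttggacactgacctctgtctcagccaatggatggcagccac
Hsp90b1: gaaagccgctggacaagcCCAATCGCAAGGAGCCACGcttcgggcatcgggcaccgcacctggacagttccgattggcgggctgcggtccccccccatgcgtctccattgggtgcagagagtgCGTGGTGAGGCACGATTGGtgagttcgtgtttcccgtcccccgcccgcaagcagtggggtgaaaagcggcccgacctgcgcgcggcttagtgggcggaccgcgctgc

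Hspa5, Manf, Sdf2l1, Creld2, Hyou1, Fkbp10, Dnajc3 and Calr were the folding chaperones called lower in the AA147 group, 8 of 19 (42.1%), while 0 were called higher and 11 were not called. Of the 19 degradation genes, 3 were called lower (15.8%) and 2 higher (10.5%). Across all 13597 genes tested, 20.2% were called, 11.1% lower and 9.05% higher, so the counts of the degradation genes lay near this background. The background was 13.5% lower and 11.2% higher among the 9693 genes with means in the range of the members, 200 to 50170. The same backgrounds apply to the counts by role below, each of which rests on few genes. The median log2 fold change was -0.17 for the folding chaperones and 0.05 for the degradation machinery, beside 0.01 for all genes tested. Fold changes were below 0 for 16 of the 19 chaperones and for 6 of the 19 degradation genes. The difference between the lists was not tested, nor was the part of the fibroblast and neuronal markers, which moved in the same comparison.

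The changes were of modest size. Among the 13 called members the median absolute log2 fold change was 0.29, 3 reached 0.5 and 0 reached 1. For the 25 members that were not called, fold changes ran from -0.19 to 0.14. A 95% interval was formed for each member from the authors' SE (the fold change plus or minus 1.96 SE), and for 21 of these 25 it lay wholly within 0.3 of no change.

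**Figure D1:**
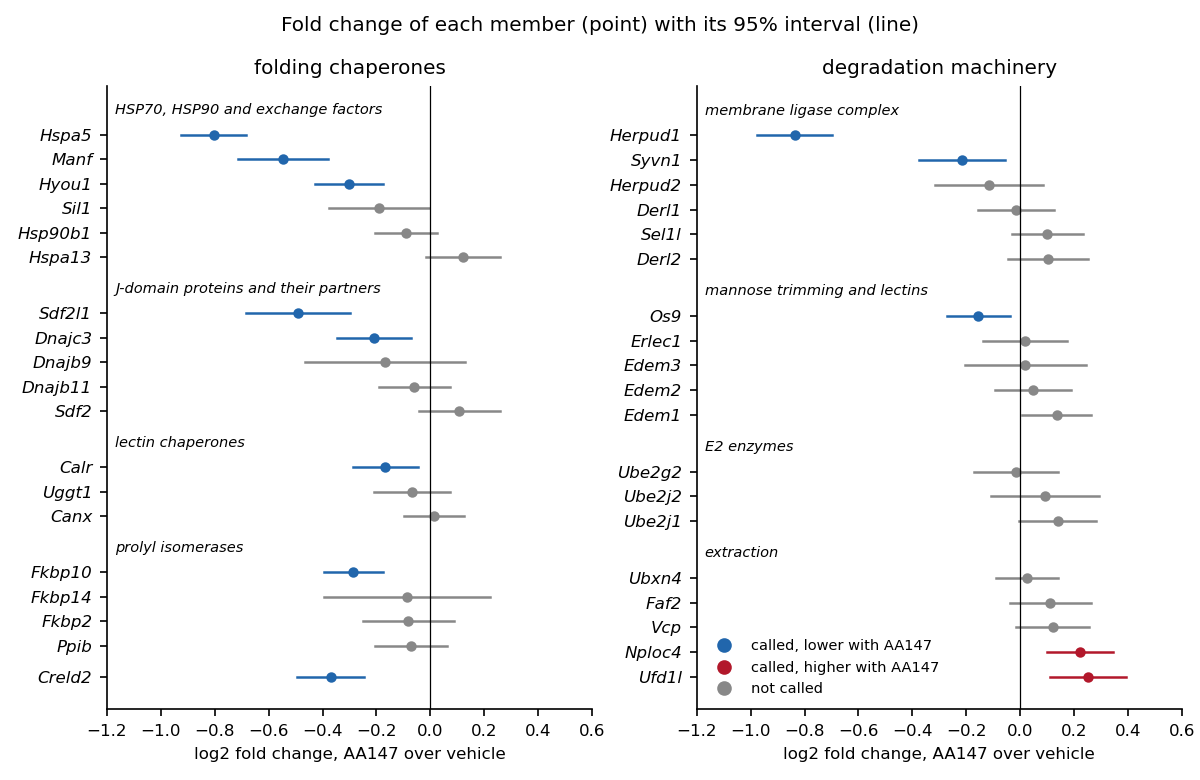
Log2 fold change of AA147 over vehicle (x axis) for the 38 members, ordered by role, folding chaperones on the left and degradation machinery on the right. Points are the fold changes and lines their 95% intervals. Blue marks the 11 members called lower and red the 2 called higher. Hspa5 and Herpud1 lie lowest, and the 2 genes called higher, Nploc4 and Ufd1l, are extraction genes.

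Among the HSP70 and HSP90 chaperones and their exchange factors, 3 of 6 were called lower. The lowest was Hspa5, which encodes BiP, the ER HSP70 that binds unfolded chains and holds the stress sensors inactive. For Hspa5, whose mean was 25944, the log2 fold change was -0.80 (adjusted p 9.89e-37, SE 0.061) in the authors' deposited table. With equal groups, this mean and fold change correspond to 32992 normalized counts in the vehicle group and 18897 in the AA147 group, so that Hspa5 fell by 42.7%. The 95% interval of this change ran from -47.3% to -37.7%. Of the 10633 genes whose mean reached 100, only 1.22% lay lower. On the annotated transcript, 44.5% of the Hspa5 bases are shared with exons of Rabepk on the opposite strand, and unstranded reads there cannot be assigned. In the authors' deposited table Rabepk, whose mean was 1176, lay at 0.18 (adjusted p 0.0863).

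Manf encodes a small secreted stress protein that binds BiP and stabilises its complexes with clients. In the authors' deposited table its fold change was -0.55 (adjusted p 4.03e-09, SE 0.085), which is a fall of the implied level from 4292 to 2937 normalized counts. Hyou1, the large HSP70-like exchange factor of BiP, fell by 18.9%, with a fold change of -0.30 (adjusted p 4.23e-05, SE 0.064) in the authors' deposited table. Both thus moved in the direction of Hspa5, at smaller sizes.

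The other 3 genes of this group were not called. Hsp90b1 encodes GRP94, the ER HSP90, and was the most abundant member, with a mean of 50170, and lay at -0.09 (adjusted p 0.295, SE 0.059) in the authors' deposited table. Its 95% interval ran from -13.3% to 1.63%, which does not reach the interval of Hspa5. Sil1, the second exchange factor of BiP, had a fold change of -0.19 (SE 0.095) in the authors' deposited table, with an unadjusted p of 0.0455 and an adjusted p of 0.153. Hspa13, a divergent HSP70 of the ER, had the only positive value of the group, 0.12 (adjusted p 0.228, SE 0.070) in the authors' deposited table. Per kilobase of annotated transcript, the level of Hspa5 relative to Hsp90b1 was 0.364 in the vehicle group and 0.222 in the AA147 group. The lengths used may differ from those of the transcripts the authors counted, which would scale both ratios alike.

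Of the J-domain proteins, which hand clients to BiP, and their partners, 2 of 5 were called lower. Sdf2l1, which associates with the J-protein ERdj3 and BiP, had the larger change at -0.49 (adjusted p 1.3e-05, SE 0.099) in the authors' deposited table, and fell by 28.9%. Dnajc3, the J-protein P58IPK, fell by 13.4%, with a fold change of -0.21 (adjusted p 0.0183, SE 0.070) in the authors' deposited table. The remaining members lay on both sides of 0 without a call. In the authors' deposited table Dnajb9 (ERdj4), whose mean was only 275, lay at -0.17 (adjusted p 0.494, SE 0.151), and its interval from -27.6% to 9.22% leaves its direction unresolved. Dnajb11, which encodes ERdj3 itself, was at -0.06 (adjusted p 0.606, SE 0.067) in the authors' deposited table. Sdf2, the constitutive relative of Sdf2l1, was at 0.11 (adjusted p 0.364, SE 0.077) in the authors' deposited table, and 33.5% of its transcript is shared with exons of the opposite-strand gene Supt6, whose mean was 9568. The intervals of the Sdf2l1 and Sdf2 fold changes, -0.68 to -0.30 and -0.04 to 0.26, did not overlap, and the difference itself was not tested.

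The lectin chaperones of the calnexin cycle hold glycoproteins while they fold. Only Calr, the soluble calreticulin, was called, and its change was small, at -0.17 (adjusted p 0.0370, SE 0.062) in the authors' deposited table. Canx, the membrane-bound calnexin, was at 0.01 (adjusted p 0.914, SE 0.056) with a mean of 35151 in the authors' deposited table. Its interval from -6.52% to 8.98% was among the narrowest of the members. Uggt1, the glucosyltransferase that returns unfolded glycoproteins to the cycle, was at -0.07 (adjusted p 0.572, SE 0.071) in the authors' deposited table.

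All 4 prolyl isomerases had negative fold changes, and 1 was called. Fkbp10, which assists the folding of collagen, fell by 17.9%, at a mean of 9082 and -0.29 on the log2 scale (adjusted p 6.47e-06, SE 0.056) in the authors' deposited table. Of 7 collagen and other matrix genes in a secretory load list, 6 were called lower, beside 11.1% of all genes tested. Among them were Col1a1 at -1.52 and Col1a2 at -0.97, while Fn1 at -0.11 (adjusted p 0.385) was not called, in the authors' deposited table. Col1a1, Col1a2 and Col3a1 are also among the fibroblast markers above. The part of these matrix transcripts in the result was not tested. Fkbp2, Fkbp14 and Ppib were at -0.08, -0.09 and -0.07 in the authors' deposited table, with SEs of 0.086, 0.157 and 0.069. Ppib and Fkbp2 are uncertain, because 59.6% of the Ppib transcript is shared with exons of Snx22 and 93.0% of the Fkbp2 transcript with exons of Gm51400. Neither of these genes had a value from the authors, so their effect on the counts is unknown. Fkbp2 also shares 34.6% with the opposite-strand Ppp1r14b, which had a mean of 2368 and lay at -0.33. Fkbp10 shares 18.9% with the opposite-strand Nt5c3b, which had a mean of 2947 and lay at -0.01. Creld2, a secreted factor of the unfolded protein response with disulfide isomerase activity, fell by 22.6%, with a fold change of -0.37 (adjusted p 1.4e-07, SE 0.063) in the authors' deposited table.

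In the membrane ligase complex, 2 of 6 genes were called lower and the remaining 4 were not called. Herpud1, a stress-induced membrane protein that joins the ligase to the derlins, had the lowest fold change of all members at -0.84 (adjusted p 1.75e-29, SE 0.071) in the authors' deposited table. The implied level was 4172 normalized counts in the vehicle group and 2336 in the AA147 group. Herpud1 thus fell by 44.0%, with an interval from -49.2% to -38.3%. Its paralog Herpud2 was at -0.12 (adjusted p 0.486, SE 0.102) in the authors' deposited table. The intervals of the 2 paralogs, -0.98 to -0.70 and -0.31 to 0.08, did not overlap, and per kilobase the level of Herpud1 relative to Herpud2 was 4.56 in the vehicle group and 2.77 in the AA147 group.

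The core of the ligase moved little. Syvn1, the ubiquitin ligase HRD1, was called at -0.21 (adjusted p 0.0436, SE 0.081) in the authors' deposited table, and this call was lost when p-values were adjusted over all 16472 genes (adjusted p 0.0521). Sel1l, the adaptor that stabilises HRD1, was at 0.10 (adjusted p 0.312, SE 0.066) in the authors' deposited table. The derlins, membrane proteins that form part of the exit channel, were at -0.02 for Derl1 (adjusted p 0.920, SE 0.072) and 0.10 for Derl2 (adjusted p 0.381, SE 0.076) in the authors' deposited table. Herpud1 was thus the only gene of this complex with a change of more than 0.3.

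The mannose-trimming enzymes and lectins mark glycoproteins for disposal, and 1 of 5 was called. Os9, a lectin that delivers trimmed glycoproteins to SEL1L, was lower at -0.15 (adjusted p 0.0436, SE 0.059) in the authors' deposited table, a call that was also lost with the wider adjustment (adjusted p 0.0522). Its relative Erlec1 was at 0.02 (adjusted p 0.919, SE 0.080) in the authors' deposited table. The mannosidase-like Edem1, Edem2 and Edem3 were at 0.13, 0.05 and 0.02 in the authors' deposited table, with SEs of 0.065, 0.072 and 0.115. Edem1 had an unadjusted p of 0.0374 and an adjusted p of 0.132, and was not called.

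The ubiquitin-conjugating enzymes were not called. Ube2j1, the membrane-anchored partner of HRD1, was at 0.14 (adjusted p 0.178, SE 0.073) in the authors' deposited table. Its relative Ube2j2 and the soluble Ube2g2 were at 0.09 and -0.02 (SEs of 0.102 and 0.080) in the authors' deposited table. All 3 intervals included 0.

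Of the 5 extraction genes, 2 were called higher and 3 were not called. The called genes encode the subunits of the adaptor that guides the segregase VCP to ubiquitinated clients. Ufd1l (now Ufd1) was at 0.25 (adjusted p 0.00470, SE 0.072) and Nploc4 at 0.22 (adjusted p 0.00338, SE 0.062) in the authors' deposited table. The implied levels went from 1811 to 2154 normalized counts for Ufd1l and from 4745 to 5537 for Nploc4. These rises of 18.9% and 16.7% had intervals of 7.82% to 31.2% and 7.20% to 27.0%.

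Vcp itself, the ATPase that pulls clients from the membrane, was at 0.12 (adjusted p 0.236, SE 0.070) with a mean of 7291 in the authors' deposited table. A copy of Vcp, Vcp-rs, is 99.0% identical over 62.3% of the transcript, so its value is uncertain. The membrane-anchored VCP cofactors Faf2 and Ubxn4 were at 0.11 and 0.03 in the authors' deposited table, with adjusted p of 0.341 and 0.829. The intervals of Vcp, Faf2 and Ubxn4 all included 0 and reached at most 19.8% above it.

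**Figure D2:**
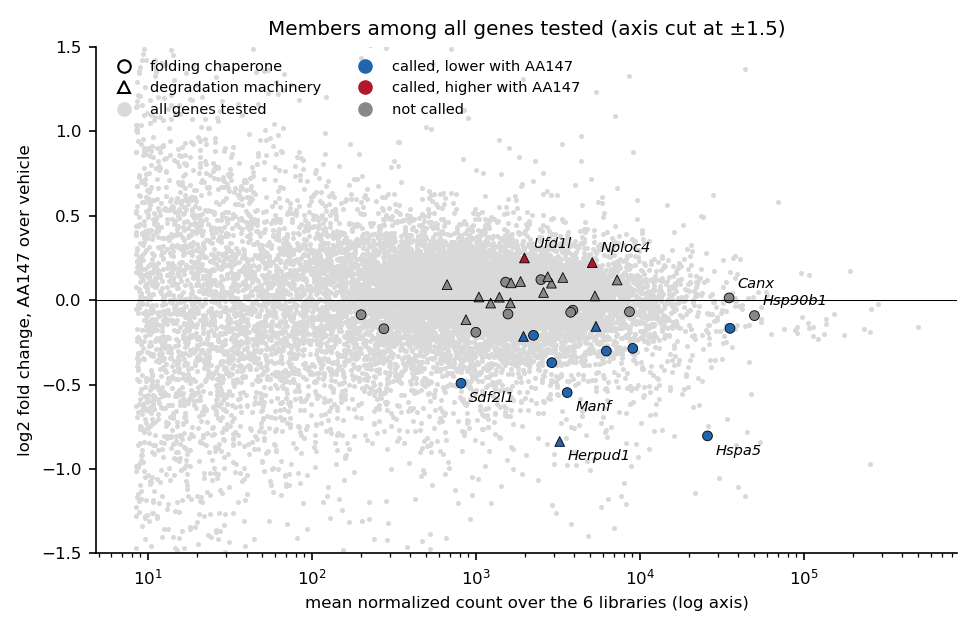
Mean normalized count over the 6 libraries (x axis, log scale) against log2 fold change of AA147 over vehicle (y axis, cut at 1.5 on either side). Grey points are all genes tested, circles the folding chaperones and triangles the degradation machinery, with calls in blue (lower) and red (higher). Hspa5, at a mean of 25944, and Herpud1, at 3254, lie below most genes of their abundance.

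The members were about as precise as other genes of similar mean. Their SEs were 0.90 to 1.28 times the median of the 200 genes nearest in mean, and 0 of 38 reached 1.5 times. The least certain were Fkbp14 and Dnajb9, with means of 200 and 275 and SEs of 0.157 and 0.151 in the authors' deposited table. For these the data could not show changes as small as those of Calr or Os9.

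The fold changes were also listed by promoter element, beside the 11.1% of all genes tested that were called lower and the 9.05% called higher. The 9 members with an exact match to either ER stress element had a median log2 fold change of -0.21, and 6 were called lower and 0 higher. Of these 9, 7 belong to the folding chaperones, the list with more lower calls. The 21 members with a promoter but neither element had a median of 0.05, with Sdf2l1 and Os9 called lower and Nploc4 and Ufd1l called higher. The 8 members with no promoter in the table had a median of -0.10, and Hyou1, Manf and Fkbp10 among them were called lower. The size of the change varied among the genes with a match. Counted from the start to the first base of the match, those of the called genes lay at -44 for Syvn1, -52 for Herpud1, -65 for Hspa5, -105 for Dnajc3, -126 for Creld2 and -162 for Calr. Those of the genes not called lay at -212 and -107 for Hsp90b1, at -145 for Canx and at 8 bases after the start for Dnajb11. The positions of the called and uncalled genes thus overlapped.

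Outside the members, 12 tested genes carried the exact ER stress element, with a median of -0.09 and 2 called lower and 0 higher. The second element was carried by 8 other tested genes, with a median of 0.01 and 0 called lower and 2 higher. Up to 1 mismatch was then allowed in the 10 fixed bases of the ER stress element, a setting chosen after the exact matches were seen. With it, 12 of 30 members and 494 of all 32851 promoters held the ER stress element. Those 12 members had a median of -0.13, and 6 were called lower, the same genes as with an exact match to either element. The 223 other tested genes with this looser match had a median of -0.03, with 26 called lower and 16 higher. No test of the element was run.

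**Figure D3:**
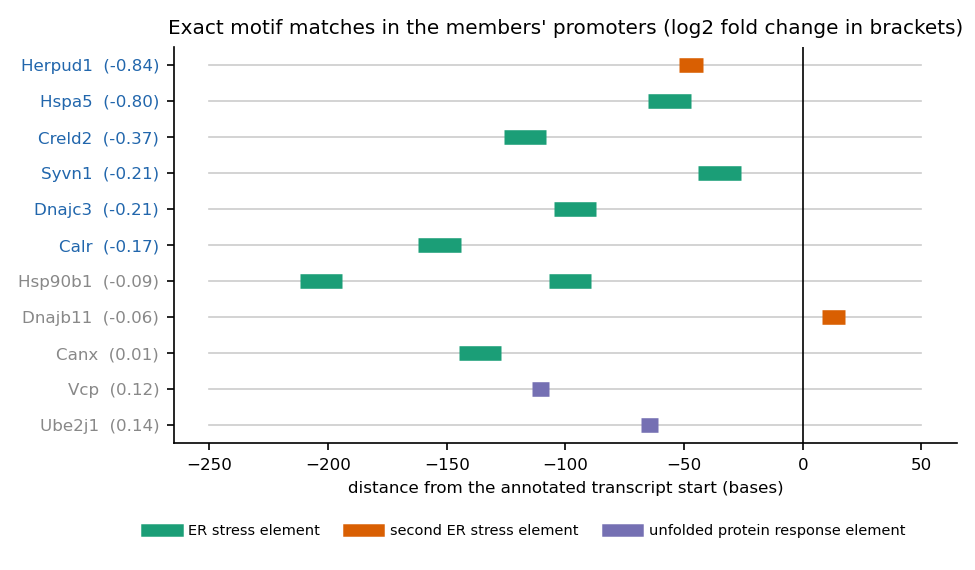
Position of exact matches in the promoters of the 11 members that hold any of the 3 motifs, as distance in bases from the annotated transcript start (x axis), with genes ordered by log2 fold change, given in brackets. Bars are matches, coloured by motif. Gene names in blue were called lower. The 6 genes shown that were called lower hold an ER stress element, and so do Hsp90b1, Dnajb11 and Canx, which were not called. Sdf2l1 and Os9 were called lower without either ER stress element, and Hyou1, Manf and Fkbp10, also called lower, had no promoter to search.

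The other genes of both processes were counted in the same way. Of 29 other ER folding factors with an adjusted p, 10 were called lower (34.5%) and 3 higher (10.3%), with a median of -0.10. The lowest called were Nucb2, a calcium-binding protein, at -1.05 (SE 0.090) and Fkbp11, a prolyl isomerase of secretory cells, at -0.98 (SE 0.081) in the authors' deposited table. Dnajc18 at 0.38 (SE 0.101) and Uggt2, the relative of Uggt1, at 0.29 (SE 0.089) led the higher calls in the authors' deposited table. Of 37 other degradation genes, 2 were called lower (5.41%) and 4 higher (10.8%), with a median of 0.00. Vimp (selenoprotein S, which recruits VCP to the ER membrane) at -0.62 (SE 0.090) and the glycanase Ngly1 at -0.28 (SE 0.103) were those called lower in the authors' deposited table. The ubiquitin ligase Rnf5 at 0.49 (SE 0.142) and the conjugating enzyme Ube2k at 0.29 (SE 0.074) were the highest called in the authors' deposited table. The Vimp value and that of Herpud1 are the only ones under -0.3 among the 56 degradation genes tested.

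**Figure D4:**
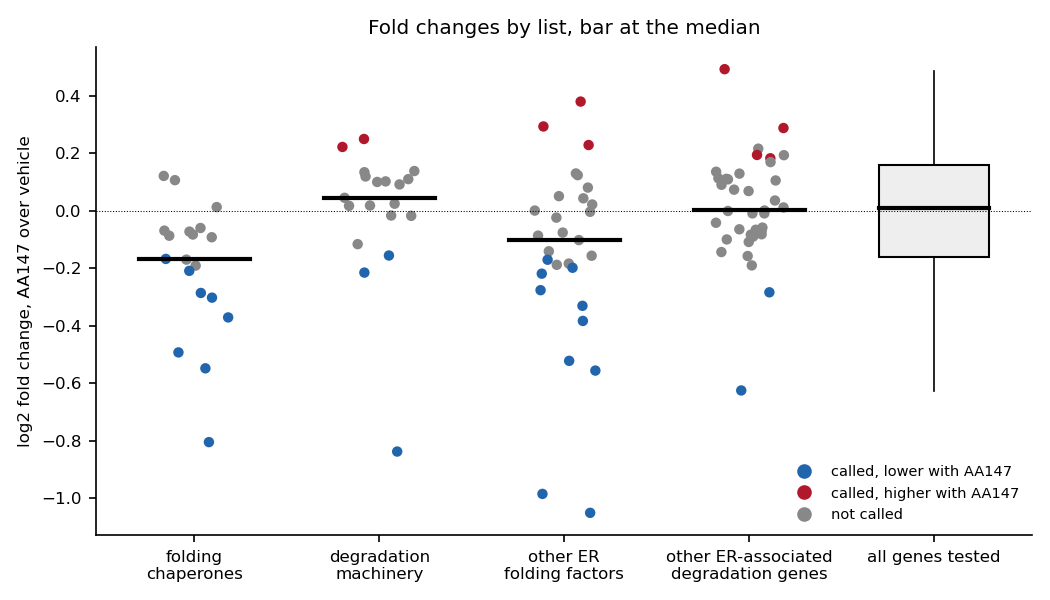
Log2 fold change of AA147 over vehicle (y axis) for the genes of 4 lists, each point a gene and each thick bar the list's median, beside a box for all genes tested (box from the 25th to the 75th percentile, lines to the 5th and 95th). Blue points were called lower and red higher. The medians are -0.17 and 0.05 for the folding chaperones and degradation machinery, and -0.10 and 0.00 for the other genes of each process.

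The regulators of the programme were mostly without a call. Of 9, 2 were called lower (22.2%), beside 11.1% of all genes tested. These were Xbp1 at -1.21 (SE 0.065) and Atf4 at -0.51 (SE 0.061) in the authors' deposited table. Atf6 was at 0.01 (SE 0.080), Ern1, which encodes IRE1, at 0.09 (SE 0.113) and Eif2ak3, which encodes PERK, at -0.19 (SE 0.084) in the authors' deposited table.

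Levels were compared between genes only per kilobase of annotated transcript, using the canonical GENCODE M39 transcripts. The authors used the mm9 build, and the transcripts they counted may differ in length, so levels per kilobase are approximate. For Hspa5 the length used was 4953 bases. Hsp90b1, Calr, Canx and Hspa5 were the 4 most abundant chaperones on this scale, at 17728, 15560, 9231 and 5238 normalized counts per kilobase, and together held 70.2% of the chaperone total. The degradation genes were lower, with a median of 565 and a highest value of 2258 for Os9, against a median of 1609 for the chaperones. Summed over the 19 chaperones, the implied level was 72227 per kilobase in the vehicle group and 63810 in the AA147 group, a difference of -11.7%. For the 19 degradation genes the sums were 14469 and 14291, a difference of -1.23%. The fall of Herpud1 alone, from 1338 to 749, was larger than this net difference, and 13 of the 19 fold changes were above 0. These sums have no replicate error, because values of single libraries were not analysed here. Fewer cells of a kind and less RNA per cell cannot be told apart in such bulk samples.

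**Figure D5:**
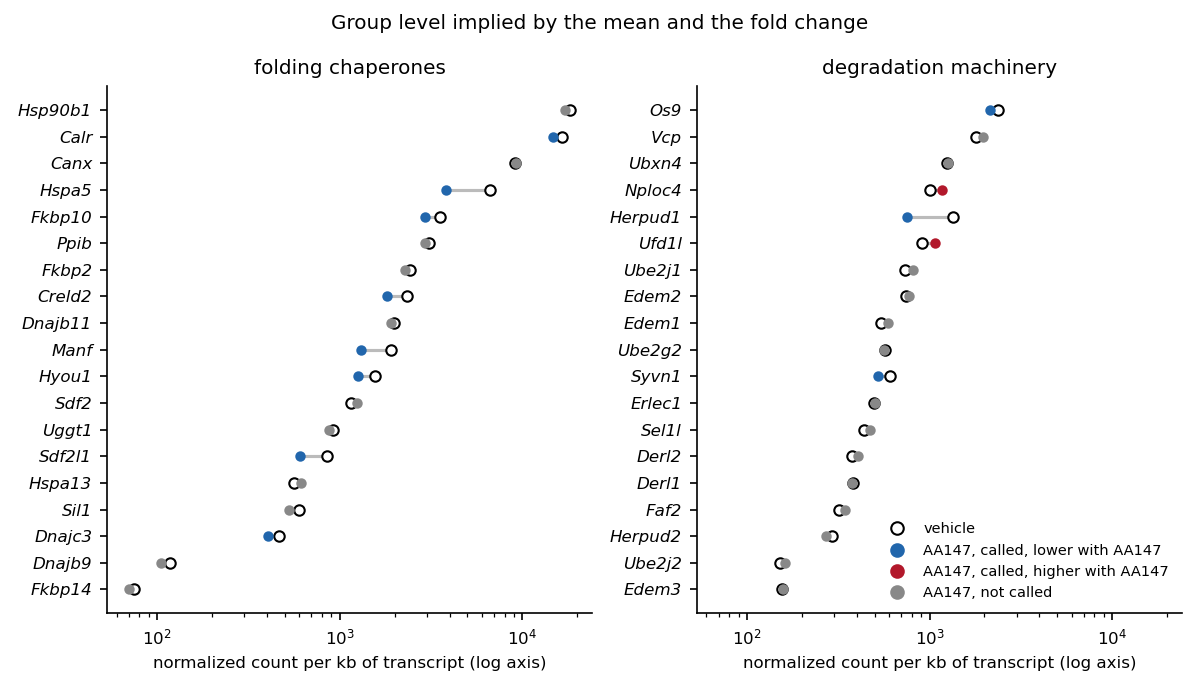
Normalized count per kilobase of annotated transcript (x axis, log scale) implied for each group by the mean and the fold change, with genes ordered by level. Open circles are the vehicle group and filled circles the AA147 group, blue or red where the gene was called. Hspa5 and Herpud1 show the widest gaps, from 6661 to 3815 and from 1338 to 749 per kilobase, and no error is drawn because values of single libraries were not analysed here.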

How the data were processed

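RNA-seq of 3 AA147 and 3 vehicle libraries was used as 1 table of gene-level results. Per the submitters' processing notes, the authors used DESeq2 and the mm9 build; versions, aligner and counter are not given in the sources used here. The authors deposited, per gene, a mean normalized count (a signal), a log2 fold change and its SE, a score (the Wald statistic) and a p-value and adjusted p-value. The statistic equalled the fold change over its SE, and the adjusted p-values a Benjamini-Hochberg adjustment over 13597 genes. The other 2875 genes, all with means of at most 8.41, had none. Depth of single libraries is unknown.

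Computed here were counts of calls, medians, 95% intervals (1.96 SE), group levels implied for equal groups, levels per kilobase, shared exons and copies (GENCODE M39 for GRCm39, BLAST 2.17.0, at least 95% identity over 200 bases) and promoter motifs (RefSeq, GRCm38.p6), with Python 3.11.15, pandas 2.3.3 and SciPy 1.17.1. Coordinates apply to GRCm38.p6 only. All members were described; of the other lists, at most 2 called genes per direction were named. Members and lists were chosen with earlier results of these data known. Other named genes were chosen after their values were seen. The code was tested on simulated data. Protein sequences were not used here.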

Additional observations from a re-analysis of the deposited data

How the results depend on the processing

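The alternatives changed how many members were called. None changed a sign of a called member, and none could. Thresholds leave fold changes as they are, and centring shifted them by at most 0.013, while the smallest called change was -0.15 (Os9). The 13 calls were the same genes with a minimum mean of 100 and with fold changes centred on genes of that mean or on reference genes. The lowest mean of a member was 200, so that minimum removed no member and changed only the adjustment. The count was 9 at an adjusted p under 0.01, where 13.4% of all genes were called. With the adjustment over all 16472 genes it was 11, and 16.0% of all genes were called. Bonferroni gave 7, beside 5.69% of all genes. Requiring also a change of 0.3 or more on the log2 scale gave 6, beside 12.7% of all genes. Testing against a null range of 0.2 on each side of no change gave 4, beside 5.11% of all genes. These settings are stricter by construction. The last 2 settings gave 5 and 3 folding chaperones in place of 8. Degradation genes called fell from 5 to 3 at an adjusted p under 0.01 and to 3 with the adjustment over all genes, both by the loss of Os9 and Syvn1, and to 1, Herpud1, with Bonferroni, the fold limit or the null range. Hspa5, Herpud1, Manf and Sdf2l1 were called under every setting run. Centring shifted the list medians by at most 0.013. The mean in place of the median was -0.20 for the folding chaperones and 0.001 for the degradation machinery, beside medians of -0.17 and 0.05. These shifts were smaller than the median SE of single members, 0.070 and 0.072, which is not the error of a list value. Allowing 1 mismatch in the ER stress element raised the members holding it from 7 to 12. No paired analysis was possible because the table has no values for single libraries, and for the same reason leaving out replicates and other normalizations were not run.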
